A study of Mus musculus with 15 samples.

Results

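The genes described here are the 4 mouse receptors for the Fc part of IgG (Fcgr1, Fcgr2b, Fcgr3 and Fcgr4), Fcer1g, Fcgrt and Syk. Fcer1g encodes the signalling chain of the activating receptors, Fcgrt the neonatal Fc receptor and Syk the kinase that docks to the chain. The 7 genes were chosen by name, as the rows of the count table whose Ensembl gene identifier carries 1 of these 7 symbols. They were chosen with earlier results of these data known. All 7 were found among 78317 identifiers and passed the filter on low counts, which 16654 genes passed. RNA was measured in MH-S cells, an SV40-transformed line of mouse alveolar macrophages, in 5 groups of 3 Smart-seq2 libraries each. M0 cells received medium alone, M1 cells LPS (1 µg/mL) together with IFN-γ (20 ng/mL), M2 cells 20 ng/mL IL-4, and the 2 remaining groups 0.1 mg/mL of microrods built on calcium phosphate (CaP) or silica (SiO2) nanoparticles with the same alginate, protamine and carboxymethyl chitosan polymers. All groups were treated for 24 h. The rods came from 3 batches per material, and each batch was given to its own well of cells of a single passage. Nothing in the sources says that the M0, M1 and M2 libraries came from separate cultures. The p-values below therefore measure the spread between these libraries, which may be technical. MH-S is a single line, and its cells stand for alveolar macrophages only as far as they keep their features.

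Fcγ receptors bind antibody-coated particles and immune complexes at the macrophage surface. Fcgr1 (the high-affinity receptor), Fcgr3 and Fcgr4 encode activating receptors, which need the FcRγ chain encoded by Fcer1g. When a receptor is cross-linked, Src family kinases phosphorylate the activation motif (ITAM) of that chain, and SYK docks there and drives phagocytosis, an oxidative burst and cytokine release. Fcgr2b encodes the only inhibitory Fcγ receptor of the mouse, whose inhibition motif recruits the lipid phosphatase SHIP1 and damps the same signal. Fcgrt encodes FcRn, which works with β2-microglobulin inside endosomes and carries IgG away from lysosomes.

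Fcgr2b, Fcgr4 and Fcgr3 lie next to each other, in this order, on chromosome 1 in the RefSeq annotation of GRCm38.p6. The 250 bases before the start of these 3 genes and of Fcgr1 are shown because these 4 receptors moved in different ways in the same cells. They come from RefSeq, GRCm38.p6, and are written 5′ to 3′ on the strand of the gene. Capitals mark matches to GAGGAA, a core that the macrophage factor PU.1 is known to bind, on either strand. The windows are chr3:96293970-96294219 (minus strand) for Fcgr1, chr1:171018676-171018925 (plus strand) for Fcgr4, chr1:171059404-171059653 (minus strand) for Fcgr3 and chr1:170976072-170976321 (minus strand) for Fcgr2b.
Fcgr1: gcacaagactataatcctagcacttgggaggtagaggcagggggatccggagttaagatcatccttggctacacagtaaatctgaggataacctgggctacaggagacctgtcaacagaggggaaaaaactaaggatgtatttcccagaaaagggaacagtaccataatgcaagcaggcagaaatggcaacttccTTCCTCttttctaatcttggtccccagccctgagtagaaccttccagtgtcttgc
Fcgr4: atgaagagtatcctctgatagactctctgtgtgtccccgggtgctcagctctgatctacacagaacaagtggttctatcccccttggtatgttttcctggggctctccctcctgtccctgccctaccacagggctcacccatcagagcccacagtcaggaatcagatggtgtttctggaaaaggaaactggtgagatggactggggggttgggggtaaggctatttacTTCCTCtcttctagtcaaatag
Fcgr3: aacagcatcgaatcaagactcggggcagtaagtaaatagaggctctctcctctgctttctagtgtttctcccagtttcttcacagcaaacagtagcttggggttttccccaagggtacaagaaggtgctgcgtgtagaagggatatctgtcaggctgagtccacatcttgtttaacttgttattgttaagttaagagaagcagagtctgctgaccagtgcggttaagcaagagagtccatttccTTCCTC
Fcgr2b: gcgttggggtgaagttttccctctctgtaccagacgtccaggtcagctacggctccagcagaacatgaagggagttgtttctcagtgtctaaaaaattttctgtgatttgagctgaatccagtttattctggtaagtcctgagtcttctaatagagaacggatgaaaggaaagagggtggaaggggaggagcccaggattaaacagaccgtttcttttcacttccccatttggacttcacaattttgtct
GAGGAA, read here as TTCCTC on the opposite strand, stood at -55 to -50 from the start in Fcgr1, at -22 to -17 in Fcgr4 and at -6 to -1 in Fcgr3, and 23.1% of 27025 promoter windows of the same length held it. The Fcgr2b, Fcer1g, Fcgrt and Syk windows did not hold it. Fcgr3 and Syk have 2 annotated windows each, of which only the first listed was searched. The motif was chosen after the levels and the windows had been seen, and a match is no evidence of binding in these cells.

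The libraries held between 8459643 and 68750050 counts, and mitochondrial genes took 0.888% to 2.18% of them. All 15 pairs of replicates differed by more than sampling noise. In an earlier principal component analysis of these data M0 replicate 3, M2 replicate 2 and SiO2 replicate 2 stood apart from their groups, and calls that change without these 3 libraries are named below. Of 10 macrophage marker genes, Cd68 (827 to 1113 CPM as group means) and Lyz2 (368 to 1850 CPM) were high, whereas Siglecf and Marco, which mark alveolar macrophages in tissue, had at most 15 and 33 counts in any library. Epithelial, mast cell and T or NK cell markers had at most 3 counts each in any library, and the neutrophil and the fibroblast or endothelial lists summed to at most 1.03 and 1.71 CPM. The summed level of 5 B cell markers was 9.04 to 14.5 CPM in M1 and 0.303 to 1.71 CPM in all other libraries, nearly all of it Cd79b (11.9 CPM in M1), with Pax5 at 1 count or less and Ms4a1 at 2 or less in every library. As a check of the stimuli, 6 genes known to rise with LPS or IFN-γ (Nos2, Il1b, Il6, Irf1, Gbp2 and Cxcl10) summed to 439 to 540 CPM in M1 and 8.21 to 16.3 CPM in all other groups, and 6 known to rise with IL-4 (Arg1, Ccl24, Clec10a, Mgl2, Chil3 and Retnla) to 2020 to 2540 CPM in M2 and 25.8 to 39.5 CPM in all others. Irf1 went the other way, at 4.22 CPM in M1 and 7.25 CPM in M0 (log2 fold change -0.77, edgeR adjusted p = 0.029). Most of the M2 sum was Arg1 (1550 CPM) and Mgl2 (489 CPM). Chil3 and Retnla were barely counted, at 0.169 and 0.186 CPM in M2 and at most 7 and 11 counts in any library.

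Levels are given as CPM, counts relative to the TMM-scaled library size, and group values are the mean ± SD of 3 libraries. In a bulk sample a lower level in every cell and fewer cells that express the gene cannot be told apart. Per kilobase of the longest transcript, the FcRγ chain was the most abundant of the 7 in M0, with 2820 CPM per kb. Fcgr3 followed with 550 CPM per kb, and Fcgr2b and Fcgr4 were far below it at 20.0 and 19.2 CPM per kb. Fcgrt had 8.34, Fcgr1 6.40 and Syk 2.28 CPM per kb. The SD of these levels over the 3 M0 libraries was 13.4% (Fcer1g) to 26% (Fcgrt) of the mean, so Fcgr2b and Fcgr4 did not differ beyond their spread. Fcer1g, Fcgr3 and Fcgr2b kept ranks 1, 2 and 3 and Syk rank 7 in all 5 groups. Fcgr3 was the main Fcγ receptor transcript in every group. Syk was counted at 75 to 729 reads and Fcgr1 at 96 to 754 reads per library. Syk, Fcgr1 and Fcgrt had the largest standard errors of the log2 fold change among the 7 genes in all 6 comparisons. Among the M0 libraries, replicate 1 was the lowest for 6 of the 7 genes, all but Fcgr2b.

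**Figure D1:**
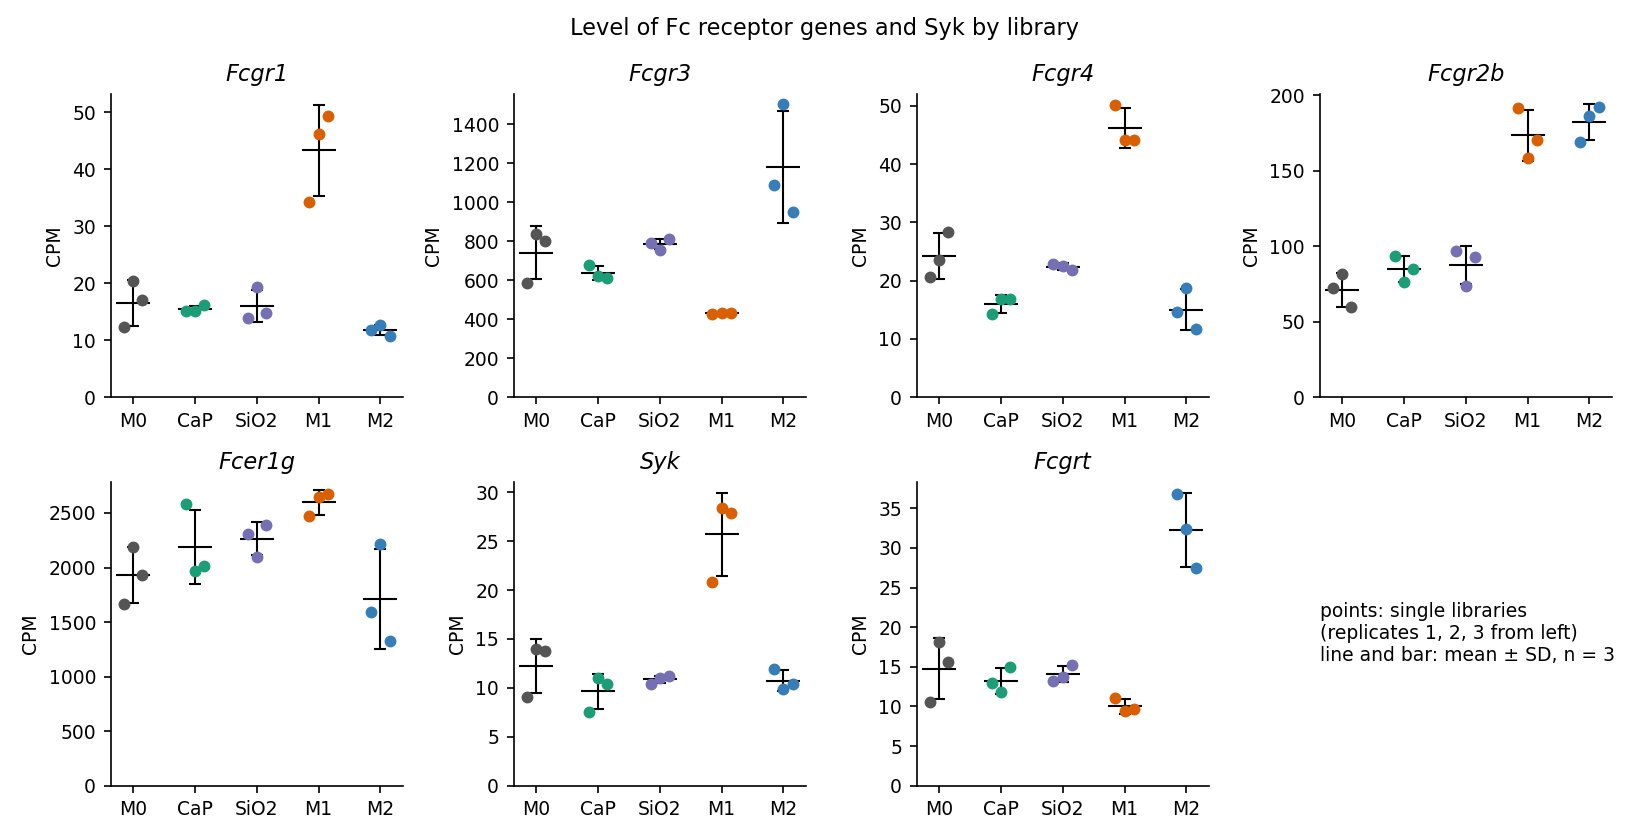
Level of the 7 genes in each library, in CPM on a linear axis from 0, by group. Points are single libraries and the line with its bar is the mean ± SD of 3; Fcgr1, Fcgr4 and Syk stood highest in M1, Fcgr3 and Fcgrt highest in M2, and Fcgr2b was high in both polarized groups.

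The first comparison asked how the M1 stimulus changed these genes. In M1, 5 of the 7 genes were differentially expressed genes (DEGs, which needed a Benjamini-Hochberg adjusted p under 0.05 in edgeR's quasi-likelihood test and a log2 fold change past 0.5 in either direction), 4 of them higher and 1 lower, where 14.1% of all genes tested were DEGs, 9.7% higher and 4.37% lower. Fcgr1, Fcgr4, Fcgr2b and Syk rose 1.92- to 2.63-fold, whereas Fcgr3 fell. The median log2 fold change of the 7 was 0.94, and that of all genes tested was -0.01. The libraries of M1 and M0 did not overlap for 6 of the 7 genes, as for 32.2% of all genes. DESeq2 called 5 of the 7 and 16.8% of all genes, and 7 of the 7 had an unadjusted p below 0.05, as had 27.7% of all.

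Fcgr1, the high-affinity receptor, was at 34.3, 46.3 and 49.4 CPM in the M1 libraries and at 12.3, 20.4 and 17.0 CPM in the M0 libraries. The lowest M1 library was above the highest M0 library. The fitted fold was 2.63 (log2 fold change 1.40, SE 0.21, edgeR adjusted p = 0.00055). Fcgr4, which binds the mouse IgG2 subclasses, was at 50.2, 44.2 and 44.2 CPM in M1 and at 20.6, 23.6 and 28.4 CPM in M0. Again no M1 library reached down to M0, and the fold was 1.92 (log2 fold change 0.94, SE 0.18, edgeR adjusted p = 0.00348).

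Fcgr3, the low-affinity activating receptor, moved the other way. It was at 425, 429.5 and 434 CPM in M1 and at 587.5, 836 and 800.4 CPM in M0, so that all M1 libraries lay below all M0 libraries and were close to each other (429 ± 4.69 CPM, SD, n = 3). The log2 fold change was -0.79 (SE 0.17, edgeR adjusted p = 0.00806). Per kilobase, its mean level went from 550 CPM in M0 to 319 CPM in M1, against 6.40 to 16.7 CPM for Fcgr1 and 19.2 to 36.8 CPM for Fcgr4, so that it remained the most abundant activating receptor transcript.

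Fcgr2b, the inhibitory receptor, was at 192, 158 and 170.5 CPM in M1 and at 72.0, 81.4 and 59.5 CPM in M0. The groups were far apart, with a fold of 2.44 (log2 fold change 1.29, SE 0.16, edgeR adjusted p = 0.000116), the smallest adjusted p of the 7 in this comparison. Of its stretches of 75 bases, 4.12% occur in another annotated gene, mostly Fcgr3, and of those of Fcgr3 5.78% occur in Fcgr2b. The counting step thus had to divide some reads between them. These are shares of sequence, not of reads. In M0 Fcgr3 was at 550 and Fcgr2b at 20.0 CPM per kb, so shared reads may weigh more on Fcgr2b than 4.12%. How they were divided was not tested. The sum of both genes had a log2 fold change of -0.43 between M1 and M0 (edgeR adjusted p = 0.0966), as Fcgr3 made up most of it. An antisense gene, Gm38204, overlaps exons of Fcgr2b in GENCODE M21, and whether strand was used in counting is not given in the sources used here. No 75-base stretch of the other 5 genes occurs in another gene.

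Syk, the kinase, was at 20.8, 28.4 and 27.9 CPM in M1 and at 9.06, 13.9 and 13.8 CPM in M0. All M1 libraries were above all M0 libraries, and the fold was 2.12 (log2 fold change 1.09, SE 0.21, edgeR adjusted p = 0.00375). Fcer1g, the chain it docks to, was at 2468, 2651 and 2675 CPM in M1 and at 1670, 2186 and 1931 CPM in M0. These libraries did not overlap either, but the log2 fold change of 0.43 (95% interval 0.03 to 0.83) did not pass (edgeR adjusted p = 0.144). Fcgrt was at 11.1, 9.37 and 9.62 CPM in M1 and at 10.6, 18.1 and 15.6 CPM in M0. Its libraries overlapped and its log2 fold change of -0.54 did not pass (edgeR adjusted p = 0.109); without M0 replicate 1, the lowest of its group, it was -0.78 (adjusted p = 0.0227). The 5 calls of this comparison held under all 25 other settings tried, among them leaving out the 3 libraries that stood apart. Of these settings, dropping the fold threshold could not lose a call. Leaving out a library of another group kept all M1 and M0 libraries. The sum of Fcgr2b and Fcgr3 given above is not among the 25.

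**Figure D2:**
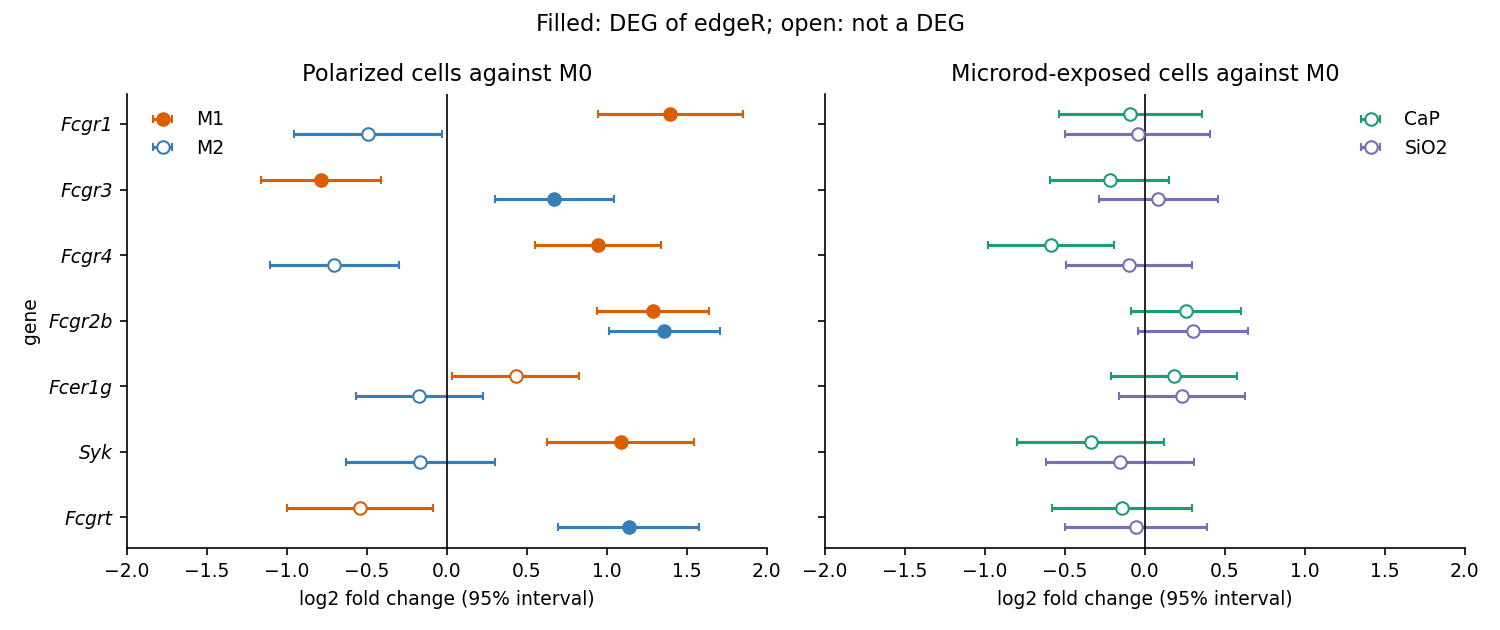
Log2 fold change of each of the 7 genes over M0, with its 95% interval, on the left for M1 and M2 and on the right for cells exposed to CaP and SiO2 rods. Filled points are DEGs of edgeR's test; 5 genes are filled in M1, 3 in M2 and 0 for either rod type, and all comparisons share the same M0 libraries.

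The second comparison asked the same of IL-4. In M2, 3 of the 7 genes were DEGs, all higher, where 4.13% of all genes tested were DEGs, 2% higher and 2.13% lower. These were Fcgr2b, Fcgrt and Fcgr3. The libraries did not overlap for 4 of the 7 genes, as for 15.2% of all genes. The median log2 fold change of the 7 was -0.17, and that of all genes was 0.07. DESeq2 called 4 of the 7 and 5.97% of all genes, and 5 of the 7 had an unadjusted p below 0.05, as had 17.2% of all.

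Fcgr2b was at 169, 186 and 192 CPM in the M2 libraries, all above the M0 range of 59.5 to 81.4 CPM. The fold was 2.57 (log2 fold change 1.36, SE 0.16, edgeR adjusted p = 0.000231). Fcgrt, the recycling receptor, was at 36.9, 32.4 and 27.5 CPM in M2, above the M0 range of 10.6 to 18.1 CPM. It rose 2.20-fold (log2 fold change 1.14, SE 0.21, edgeR adjusted p = 0.00589). B2m, its light chain, was at 927 ± 102 CPM in M2 and at 1061 ± 208 CPM in M0 (SD, n = 3) and was not a DEG (log2 fold change -0.20, edgeR adjusted p = 0.605). The calls for Fcgr2b and Fcgrt held under all 25 other settings.

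Fcgr3 was at 1088, 1503 and 951 CPM in M2, above the M0 range of 587.5 to 836 CPM, and its log2 fold change was 0.67 (SE 0.17, edgeR adjusted p = 0.0469). This call rests on little: it was lost in 19 of 25 other settings, among them leaving out any library but M0 replicate 2 or M2 replicate 3 (adjusted p 0.0117 to 0.209 over the 25). Leaving out M2 replicate 2, the highest, gave 0.46 (adjusted p = 0.084), leaving out M0 replicate 1, the lowest, gave 0.51 (adjusted p = 0.209), and without the 3 libraries that stood apart it was 0.51 (adjusted p = 0.15). Fcgr4 lay on the other side of the threshold. Its M2 libraries, at 14.6, 18.7 and 11.7 CPM, were all below the M0 range of 20.6 to 28.4 CPM, with a log2 fold change of -0.70 (SE 0.19, edgeR adjusted p = 0.0523), and DESeq2 called it (adjusted p = 0.00707). In edgeR it was called without M2 replicate 2 (adjusted p = 0.0109) or CaP replicate 1 (0.0418), and with only genes of at least 10 counts in every library (0.0304).

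Fcgr1 was at 11.9, 12.6 and 10.8 CPM in M2. The upper end of M2 overlapped the lowest M0 library, and the log2 fold change of -0.49 did not pass (edgeR adjusted p = 0.255). For Fcer1g (1712 ± 457 CPM in M2, SD, n = 3) the log2 fold change was -0.17 with a 95% interval of -0.57 to 0.22, and for Syk (10.8 ± 1.07 CPM) it was -0.17 with an interval of -0.63 to 0.30. Neither passed the test (edgeR adjusted p = 0.706 for Fcer1g and 0.766 for Syk).

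Set directly against each other, the polarized states differed in 6 of the 7 genes, 4 higher and 2 lower in M1, where 16.1% of all genes were DEGs, 10.6% higher and 5.46% lower. The libraries of these 6 did not overlap, as for 29.4% of all genes. DESeq2 called 6 of the 7 and 17.1% of all genes, and 6 had an unadjusted p below 0.05, as had 29.8% of all. Fcgr1 was 3.71-fold higher in M1 than in M2 (log2 fold change 1.89, SE 0.22, edgeR adjusted p = 3.33e-05). Fcgr4 was 3.13-fold higher in M1, with a log2 fold change of 1.65 ± 0.19 (SE), and Syk 2.39-fold higher, with 1.25 ± 0.21 (SE). Fcgr3 was 2.75-fold higher in M2, with a log2 fold change of -1.46 ± 0.18 (SE), and Fcgrt 3.21-fold higher in M2, with -1.68 ± 0.21 (SE). Fcer1g passed at 1.52-fold higher in M1 (edgeR adjusted p = 0.0395), but it was lost in 13 of 25 other settings. Among these were leaving out M0 replicate 3, M2 replicate 1 or 3, CaP replicate 3 or any M1 or SiO2 library, with adjusted p up to 0.161 without M2 replicate 3. For Fcgr2b no difference was shown, and the 95% interval of its log2 fold change, -0.42 to 0.27, does not exclude differences up to these sizes. Fcgr1, Fcgr4 and Syk were thus the M1-high members, Fcgr3 and Fcgrt the M2-high members, and Fcgr2b was raised over M0 in both.

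Within a library, the level of each activating receptor was set against that of Fcgr2b, as the log2 ratio of CPM with 1 CPM added to each. These ratios describe the libraries and were not tested, and transcript length, for which they are not corrected, cancels between groups. All of them depend on how reads shared by Fcgr2b and Fcgr3 were divided. Fcgr3 stood above Fcgr2b in every library. Its log2 ratio was 3.01, 3.34 and 3.73 in the M0 libraries and 1.14, 1.44 and 1.34 in M1, a mean difference of -2.05, and 2.68, 3.01 and 2.30 in M2. The M1 libraries thus had the lowest Fcgr3 to Fcgr2b ratio of all 15. For Fcgr1 the mean log2 ratio was -2.05 ± 0.37 in M0 and -1.99 ± 0.40 in M1, which is within the spread of the libraries, and -3.85 ± 0.17 in M2 (SD, n = 3). For Fcgr4 it was -1.52 ± 0.41 in M0, -1.88 ± 0.06 in M1 and -3.54 ± 0.35 in M2 (SD, n = 3). All M2 libraries lay below all other libraries in both of these ratios. After CaP rods the mean log2 ratio was 2.90 ± 0.09 for Fcgr3, -2.38 ± 0.15 for Fcgr1 and -2.33 ± 0.26 for Fcgr4 (SD, n = 3). After SiO2 rods it was 3.16 ± 0.165, -2.38 ± 0.44 and -1.91 ± 0.21. The CaP libraries lay below all M0 libraries for Fcgr4 and, narrowly, for Fcgr3 (highest 3.004 against lowest 3.01). The Fcgr1 ratio after CaP rods and all ratios after SiO2 rods overlapped with M0.

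**Figure D3:**
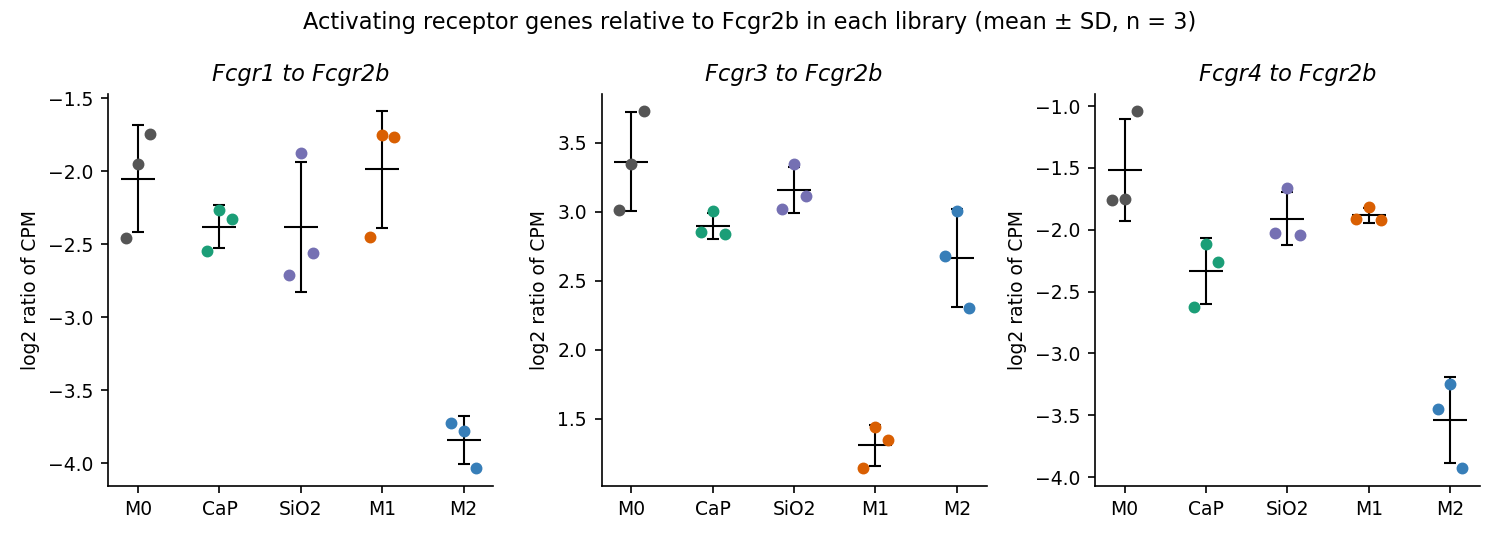
Log2 ratio of the CPM of Fcgr1, Fcgr3 and Fcgr4 to that of Fcgr2b in each library, by group (points: libraries, line and bar: mean ± SD of 3; the 3 vertical axes differ and do not start at 0). The Fcgr3 ratio is lowest in M1, and the Fcgr1 and Fcgr4 ratios are lowest in M2.

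The comparisons of microrod-exposed cells with M0 asked whether exposure to the rods changed the same genes. Uptake was not measured in these libraries. In the paper's imaging of CaP rods, done on separate cells and earlier than 24 h, only part of the cells held a rod. After CaP rods, 0 of the 7 genes were DEGs, where 0.654% of all genes tested were (0.426% higher and 0.228% lower), and 1 of the 7 had an unadjusted p below 0.05, as had 15.8% of all genes. That gene was Fcgr4. It was at 14.3, 16.9 and 16.9 CPM after CaP rods and at 20.6 to 28.4 CPM in M0, so the libraries did not overlap, as for 17.4% of all genes. Its log2 fold change was -0.59 (SE 0.18, edgeR adjusted p = 0.156), and DESeq2, which called 2.77% of all genes, called it with an adjusted p of 0.0485. The remaining 6 genes overlapped between CaP and M0 libraries. Their log2 fold changes lay between -0.34 (Syk, 95% interval -0.80 to 0.12) and 0.25 (Fcgr2b, 95% interval -0.09 to 0.60).

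After SiO2 rods, 0 of the 7 genes were DEGs, where 0.264% of all genes were (0.222% higher and 0.042% lower). None of the 7 had an unadjusted p below 0.05 in edgeR, a count of 0 where 8.17% of all genes had such a p, and DESeq2 called 0 of the 7 and 0.781% of all genes. The libraries of all 7 genes overlapped with those of M0, whereas for 18% of all genes they did not. Fcgr2b had the highest log2 fold change, 0.30 (95% interval -0.04 to 0.65, edgeR adjusted p = 0.682), at 96.6, 73.5 and 92.6 CPM after SiO2 rods. Syk had the lowest, -0.16 (95% interval -0.62 to 0.31). Fcgr4 was at 23.0, 22.5 and 21.8 CPM after SiO2 rods, within its M0 range. With 3 libraries per group, changes of the size seen in M1 for Fcgr1 or Fcgr2b lie outside the 95% intervals of both rod comparisons, whereas changes within these intervals are not excluded.

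Between the rod types, 0 of the 7 genes were DEGs, where 0.018% of all genes were, and DESeq2 called 0 of the 7 and 0.102% of all genes. The doses were equal by mass, and the paper states that the number of rods then differs, as the materials differ in density. The effect of rod number was not tested. The libraries did not overlap for 2 genes, Fcgr4 and Fcgr3, as for 8.1% of all genes. Fcgr4 was lower after CaP than after SiO2 rods by a log2 fold change of -0.49 (95% interval -0.88 to -0.09, edgeR adjusted p = 1), the only unadjusted p below 0.05 among the 7, where 1.66% of all genes had such a p. Fcgr3 was at 679.5, 619.9 and 611 CPM after CaP rods and at 792, 754.5 and 808 CPM after SiO2 rods, with a log2 fold change of -0.30 (95% interval -0.67 to 0.07). The 5 remaining log2 fold changes lay between -0.18 and -0.05.

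In order of level over the 5 groups, M1 was first for Fcgr1, Fcgr4, Fcer1g and Syk and M2 first for Fcgr2b, Fcgr3 and Fcgrt. M2 was last for Fcgr1, Fcgr4 and Fcer1g, M1 for Fcgr3 and Fcgrt, CaP rods for Syk and M0 for Fcgr2b. M0 and both rod groups stood next to each other for 6 of the 7 genes, all but Syk, where M2 came between SiO2 and CaP rods. Neighbours among them had overlapping libraries except for Fcgr4, where the SiO2 libraries were all above the CaP libraries.

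Over the 15 libraries, the log2 CPM of Fcgr1 followed that of Syk (Pearson's r = 0.92) and of Fcgr4 (r = 0.892), and that of Fcgr3 followed Fcgrt (r = 0.891), whereas Fcgr1 and Fcgr3 ran against each other (r = -0.763). These values describe 15 libraries in 5 groups that share treatments, so they mostly restate the group means. With the group means removed, Fcgr1 and Fcgr3 had r = 0.519, and the highest value was that of Fcgr3 with its chain Fcer1g (r = 0.915). Among 11304 genes whose mean reached 5 CPM in any group, those most like Fcgr1 were Nfkbia (r = 0.966), Has1 and Sod2 (both 0.963). Nfkbia, which encodes the NF-κB inhibitor IκBα, was at 269 CPM in M0 and 1180 CPM in M1. Cd83, a surface marker of activated antigen-presenting cells, was most like Fcgr2b (r = 0.972), at 0.668 CPM in M0, 10.8 CPM in M1 and 10.6 CPM in M2, before Itsn1 (0.933) and Cish (0.929), a target of cytokine signalling. The genes nearest to Fcgr4 were Cd300e (0.955), Blnk (0.946) and Trem3 (0.942), and those nearest to Syk were 1110008L16Rik (0.963), Aen (0.955) and Siglece (0.95). For Fcgr3 they were Nudt16l1 (0.969), Rab19 (0.964) and Spaca9 (0.958), for Fcgrt Naaa (0.959), St8sia1 (0.958) and Napsa (0.953), and for Fcer1g Ciao2b (0.952), Cd63 (0.943) and Mdh2 (0.903).

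Other genes of Fc receptor signalling were taken from 6 lists with 69 genes, of which 68 were found in the table and 54 passed the filter. These lists, too, were chosen with earlier results of these data known. In M1, 10 of the 54 were DEGs with a higher and 1 with a lower level, 20.4% in all against 14.1% of all genes. In M2, 2 were higher and 2 lower, 7.41% against 4.13%. The median log2 fold change of the 54 was 0.11 in M1 and 0.09 in M2. Against M0, both rod types had 1 DEG among the 54, the same gene, which is 1.85% against 0.654% of all genes for CaP and 0.264% for SiO2 rods. At an unadjusted p below 0.05 there were 8 after CaP rods and 3 after SiO2 rods, 1 each in DESeq2. CaP and SiO2 rods differed in 0 of the 54 (2 at an unadjusted p below 0.05, 0 in DESeq2), against 0.018% of all genes.

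Among the Src family kinases, which phosphorylate the receptor motifs, Lck, best known from T cells, was at 14.1 ± 0.316 CPM in M1 and 7.44 ± 1.98 CPM in M0 (SD, n = 3; log2 fold change 0.96, edgeR adjusted p = 0.00719), with no T cell marker above 3 counts. Of 10 adaptors tested, which assemble complexes behind SYK, 4 rose and 1 fell in M1 (50% against 14.1% of all genes). Blnk, which SYK phosphorylates, rose from 40.4 ± 6.03 to 100.1 ± 3.79 CPM (SD, n = 3; log2 fold change 1.31, edgeR adjusted p = 0.000121), and Pik3ap1 (BCAP), Lcp2 (SLP-76) and Gab2 had log2 fold changes of 1.28, 1.04 and 0.90. Of 19 SYK effectors, 2 rose in M1 and 0 fell, a share of 10.5% that is below the 14.1% of all genes. They were Rac2, a GTPase of the phagocyte oxidase and of actin remodelling, with a log2 fold change of 1.79 (edgeR adjusted p = 0.000802), and Pik3r5, a regulatory subunit of PI3Kγ, with 1.00 (edgeR adjusted p = 0.00287).

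Of 15 inhibitors, 1 rose and 0 fell in M1 (6.67% against 14.1% of all genes) and 1 rose and 1 fell in M2 (13.3% against 4.13%). Sla (SLAP), an adaptor that limits receptor signals, was the gene that rose in both, from 6.59 ± 1.80 CPM in M0 to 17.5 ± 3.50 CPM in M1 and 21.8 ± 4.71 CPM in M2 (SD, n = 3; edgeR adjusted p = 0.00804 and 0.00552). Ptpn22, a phosphatase that acts on Src family kinases, fell in M2 (log2 fold change -0.72, edgeR adjusted p = 0.0202). Inpp5d, which encodes the SHIP1 that Fcgr2b recruits, was not a DEG in any of the 6 comparisons, at 36.5 ± 4.60 CPM in M0, 32.3 ± 5.71 CPM in M1 and 45.9 ± 8.67 CPM in M2 (SD, n = 3). Ptpn6, which encodes the phosphatase SHP-1, was at 563 ± 93.0 CPM in M1 and 355 ± 82.5 CPM in M0 and did not pass (log2 fold change 0.67, edgeR adjusted p = 0.076). DESeq2 called it (adjusted p = 0.0471). Prkcd, a protein kinase C isoform among the effectors, rose in M2 (log2 fold change 1.12, edgeR adjusted p = 0.0314). Tyrobp (DAP12), another ITAM adaptor, was at 637 to 821 CPM as group means and B2m at 907 to 1360 CPM, and neither was a DEG in any comparison.

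Of 13 other Fc receptors and Fc receptor-like genes, 12 were found and 3 tested. Fcrlb, an intracellular Fc receptor-like protein, was higher in M1 (1.59 ± 0.698 against 0.41 ± 0.311 CPM, SD, n = 3; log2 fold change 2.47, edgeR adjusted p = 0.028), and Fcrl1, a surface receptor best known from B cells, was lower in M2 (21.9 ± 12.7 against 57.2 ± 13.2 CPM; log2 fold change -1.42, edgeR adjusted p = 0.0238). The B cell markers given above summed to 0.463 to 1.08 CPM in M0 and 1.13 to 1.71 CPM in M2, and Ms4a1 and Pax5 had at most 2 counts in any library. The IgE receptor genes Fcer1a, Ms4a2 and Fcer2a, the IgM and IgA receptor genes Fcmr, Fcamr and Pigr, and Fcrl5, Fcrl6 and Fcrla had at most 12 counts in any library and were not tested.

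Lat, a membrane adaptor best known from T cells and mast cells, was the DEG of both rod comparisons. It was at 5.59 to 7.58 CPM after CaP rods and at 3.37 to 5.73 CPM after SiO2 rods, against 0.58 to 1.63 CPM in M0, 0.17 to 0.34 CPM in M1 and 1.18 to 1.98 CPM in M2. All rod libraries were above all other libraries. The log2 fold change over M0 was 2.71 (SE 0.34, edgeR adjusted p = 0.00112) for CaP and 2.15 (SE 0.35, edgeR adjusted p = 0.0207) for SiO2 rods, and -1.86 (SE 0.58, edgeR adjusted p = 0.0448) for M1. Its level was low in every group, and Lat2, a related adaptor of myeloid cells, was at 84.6 to 156 CPM as group means.

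**Figure D4:**
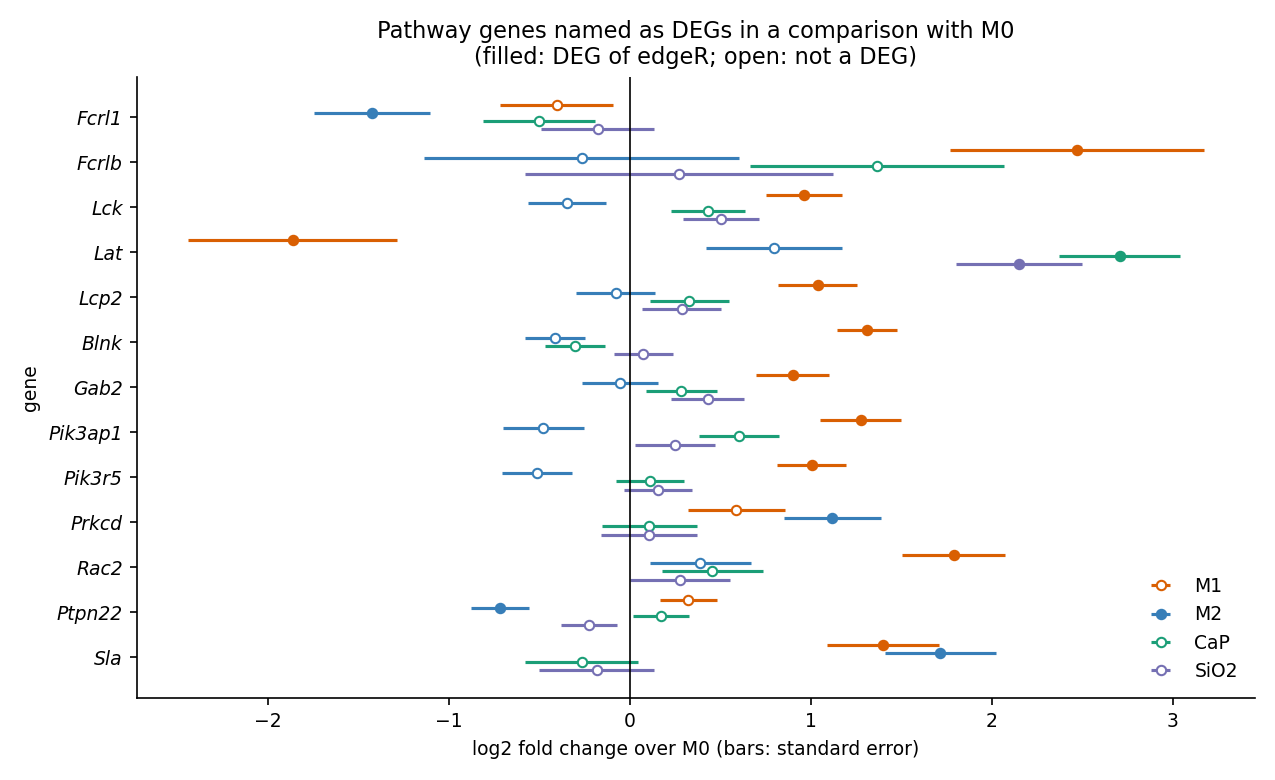
Log2 fold change over M0, with its standard error, of the pathway genes named in the text as DEGs in at least 1 of the 4 comparisons with M0. Filled points are DEGs of edgeR's test; most filled points belong to M1, and Lat is filled for both rod types.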

How the data were processed

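Per the labels and the paper's methods, the authors made Smart-seq2 libraries and processed paired-end reads with nf-core/rnaseq 3.14.0 (STAR and Salmon, Ensembl 114, GRCm39). They deposited whole-number counts per gene, possibly rounded Salmon estimates, without molecular identifiers. Symbols for 51487 of 78317 identifiers came from a table of another release, and all 15 columns matched a library by name. The counts were tested with edgeR 4.0.16 in R 4.3.3 (TMM, filterByExpr by group, version 4 quasi-likelihood method, 1 model of 15 libraries without a replicate term). The code was checked on simulated counts drawn independently, which cannot show outlying libraries or replicates that deviate together. DESeq2 1.42.0, the tool of the study, was an alternative. An exact permutation test of 3 against 3 cannot go below p = 0.1 (two-sided). Members and lists were chosen with earlier results of these data known. Genes named from the lists were DEGs against M0 (up to 6 per list), and B2m, Tyrobp, Inpp5d, Ptpn6 and Lat2 were named after their values were seen. Some genes counted in the lists are not reported here by name. Nearest genes were the 3 with the highest r over the libraries. Same-numbered libraries deviated together in all 3 pairs only in M1 against M0 (r = 0.206 to 0.292 across genes). Single pairs of other comparisons reached up to r = 0.604. No label says that the numbers pair libraries, and a replicate term was tried only as another setting. Transcript lengths, overlaps and 75-base stretches came from GENCODE M21.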

Additional observations from a re-analysis of the deposited data

How the results depend on the processing

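The 5 calls in M1 and those of Fcgr2b and Fcgrt in M2 held under all 25 settings. With the replicate block, M1 against M0 had 2121 DEGs and 5 of the 7 genes were called. The block took away the calls of Fcgr3 in M2 (edgeR adjusted p = 0.0793) and of Fcer1g between M1 and M2 (0.057). In these comparisons same-numbered libraries did not deviate together. The block changed no other call among the 7. It left 59 DEGs for CaP and 19 for SiO2 rods against M0.

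Counts of DEGs over all genes moved more. M1 against M0 had 2342, with 1506 in a model of the 9 libraries of M0, M1 and M2, 3610 (1887 higher and 1723 lower, against 1615 and 727) without the 3 libraries that stood apart, and 1511 to 3128 when leaving out 1 library (lowest without M1 replicate 3, also 1516 without M1 replicate 2). M2 against M0 had 687, with 1141 without a filter, 297 with 9 libraries, 454 after thinning to the smallest library, and 316 (without M0 replicate 1) to 1361 (without M2 replicate 2), with 434 without M0 replicate 3, 409 without M2 replicate 1 and 366 without M2 replicate 3. M1 against M2 had 2679, with 4407 without a filter, 1784 with 9 libraries, 5264 without the 3 libraries, and 1764 (without M2 replicate 3) to 4270 (without M2 replicate 2). CaP rods against M0 had 109, with 461 in DESeq2 (1 of the 7 genes, Fcgr4), 968 without a filter, 68 with 9 libraries, 53 after thinning, 65 without the 3 libraries, 59 with edgeR's legacy method, an alternative chosen after seeing the data, and 30 (without M0 replicate 1) to 324 (without M2 replicate 2), with 183 and 45 without M0 replicate 2 and 3, 61 and 37 without CaP replicate 2 and 3, and 69 and 66 without SiO2 replicate 1 and 3. SiO2 rods against M0 had 44, with 130 in DESeq2, 205 without a filter, 10 with 9 libraries, 25 after thinning, 15 without the 3 libraries, and 8 (without M0 replicate 1) to 50 (without M2 replicate 2), with 28 and 16 without M0 replicate 2 and 3, 27 without M1 replicate 3, 26 and 27 without CaP replicate 2 and 3, and 11, 19 and 12 without SiO2 replicate 1, 2 and 3. CaP against SiO2 rods had 3, with 17 in DESeq2, 104 without a filter, and 3 to 8 (without M2 replicate 2) when leaving out 1 library, with 7 without M0 replicate 1 and 5 without M1 replicate 3. The causes were not tested.

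Log2 fold changes that changed sign were none of the calls except where the counts of Fcgr2b and Fcgr3 were summed, which gave -0.43 in M1 and -0.17 after CaP rods. For SiO2 rods against M0, Fcgrt was 0.034 after thinning and 0.019 without the 3 libraries, and Fcgr4 was 0.033 without them. Fcgr1 between CaP and SiO2 rods was 0.081 without them. With 5 CPM added, the M1 minus M0 log2 ratio of Fcgr1 to Fcgr2b was -0.069. Leaving out 1 library gave ranges across 0 for Fcgr1 (-0.30 to 0.10) and Fcgrt (-0.37 to 0.046) after CaP rods, for Fcgr1 (-0.25 to 0.14), Fcgr3 (-0.071 to 0.18), Fcgr4 (-0.22 to 0.025) and Fcgrt (-0.28 to 0.13) after SiO2 rods, and for Fcgr1 (-0.14 to 0.10), Fcgr2b (-0.16 to 0.029) and Fcer1g (-0.20 to 0.017) between the rod types. Syk, Fcgr1 and Fcgrt had the widest intervals in all 6 comparisons.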
